A study of Mus musculus with 30 samples.

Results

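Enzymes that add methyl groups to lysines of histone tails (writers) and enzymes that take them off (erasers) were followed in mouse blood stem and progenitor cells after MTP10-HDL. The genes were chosen by symbol alone: protein-coding genes named Kmt, Kdm, Setd, Setdb or Nsd with a number, the Suv39h genes, and Ezh1, Ezh2, Ehmt1 and Ehmt2. Of 55471 genes in each count table, 21933 of them protein coding, 45 carried such a symbol. Kdm5c, Kdm5d and Kdm6a were left out, which left 42 genes: 27 writers and 15 erasers. The name pattern itself uses no measured value, but the genes were chosen with earlier results of these data known. The name pattern also takes Kmt2e, Setd3, Setd4, Setd5, Setd6 and Kdm8, which are better known for other substrates or have no settled histone activity, and these were grouped apart under "other". Kdm4d, a demethylase of H3K9, had too few counts to test, so 41 of the 42 genes were tested within each cell type. It had 0 to 16 counts per HSC library and 0 counts in all 5 MPP libraries, where a count of 0 (up to 3 counts allowed) left a limit of 0.0915 to 0.267 counts per 1000000, by counting error alone.

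Methyl groups on histone lysines mark the state of a gene. Methylation of lysine 4 of histone H3 (H3K4), written by the Kmt2 and Setd1 enzymes inside COMPASS complexes, is found at active promoters and enhancers, whereas H3K9 methylation (Suv39h, Ehmt and Setdb enzymes) and H3K27 methylation (Ezh1 and Ezh2 inside Polycomb repressive complex 2, PRC2) accompany silenced chromatin. H3K36 methylation follows transcription, and H4K20 methylation is tied to chromatin compaction and the cell cycle. Blood stem cells depend on several of these enzymes, among them Kmt2a (MLL1) and Ezh2, and in human monocytes SETD7, G9a (EHMT2) and the KDM5 demethylases have been studied in trained immunity, the lasting change of innate immune cells after a first stimulus.

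The cells were blood stem cells (HSCs) and their offspring, multipotent progenitors (MPPs), sorted from marrow of C57BL/6 mice given MTP10-HDL or buffered saline (PBS). In MTP10-HDL, muramyl tripeptide, derived from bacterial cell wall, is carried on a nanoparticle built from high-density lipoprotein. There were 6 MTP10-HDL and 7 PBS libraries of HSCs and 3 MTP10-HDL and 2 PBS libraries of MPPs, each made from a pool of 4 mice, so that the p-values measure the spread between pools. For MPPs the labels give 3 injections within 5 days, with bone marrow taken on the day after the last one and depleted of lineage-positive cells before sorting. Neither that schedule for the HSC libraries nor the age, sex or sort gates of the mice is given in the sources used here.

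Total counts per library were 5467455 to 7641976 in MTP10-HDL and 4064155 to 7879858 in PBS HSCs, and 17555267 to 32769369 in MTP10-HDL and 11252479 and 14691375 in PBS MPPs. The stem cell markers Slamf1 and Procr, the progenitor markers Cd34 and Flt3, and Kit were detected in every library of both cell types. Slamf1 was at 26.5 to 47.8 CPM (counts scaled to 1000000 per library) in MTP10-HDL and 23.9 to 44.9 CPM in PBS HSCs, and at 0.649 to 1.54 CPM in MTP10-HDL and 1.97 to 2.04 CPM in PBS MPPs. Within MPPs, Flt3 was at 842 to 899.5 CPM with MTP10-HDL and 665 to 756 CPM with PBS, and Kit at 308 to 424 CPM with MTP10-HDL and 491 to 519 CPM with PBS. Procr, a stem cell marker, was at 27.3 to 30.5 CPM in MTP10-HDL MPPs and 47.0 to 61.1 CPM in PBS MPPs, without overlap. The MPP treatments did not overlap for Slamf1, Flt3 or Kit either. Among all genes tested in MPPs, 12% lay wholly higher with MTP10-HDL and 12.3% wholly lower. Because the kits differed between HSC and MPP libraries, no level in HSCs is set against one in MPPs. In sorted bulk cells, a change in the share of a cell type and a change in RNA per cell cannot be told apart.

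In HSCs, no writer or eraser passed a false discovery rate (FDR) of 0.05 between MTP10-HDL and PBS. The edgeR quasi-likelihood test called 0 of the 41 genes, against 0% of all 16631 genes tested, and limma voom and DESeq2 also called 0 of the 41 (DESeq2 called 0.606% of all genes, and edgeR with no filter on low counts 0.0921%). At an unadjusted p under 0.05, 0 of the 41 were higher (background 4.36%) and 1 was lower, Kdm4c (background 4.47%; 8.83% in either direction). These counts moved with the libraries used: without MTP10-HDL 1 they were 2 higher and 4 lower, and without PBS 2 the lower count was 3. The lower count was 2 without MTP10-HDL 3, PBS 1, PBS 3 or PBS 7, and 6 among genes of at least 10 CPM. The log2 fold changes, MTP10-HDL over PBS throughout, lay between -0.43 and 0.34 with a median of -0.04, beside -0.02 for all genes. They split into 17 above 0 and 24 below 0. The treatments overlapped for every gene, whereas MTP10-HDL libraries lay wholly above PBS for 0.174% of all genes and wholly below for 0.168%. Levels of the same gene were close between libraries: the standard deviation (SD) of log2 CPM within a group had a median of 0.22 over these genes and 0.50 over all genes. The standard errors (SE) of the fold changes had a median of 0.14, against 0.30 for all genes. For 39 of the 41 genes the 95% interval of the fold change lay within 2-fold in either direction, as it did for 54.8% of all genes, and for 29 it lay within 1.5-fold. These comparisons of spread with all genes were not matched for expression level, and 38 of the 41 genes reached a mean of 10 CPM.

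**Figure D1:**
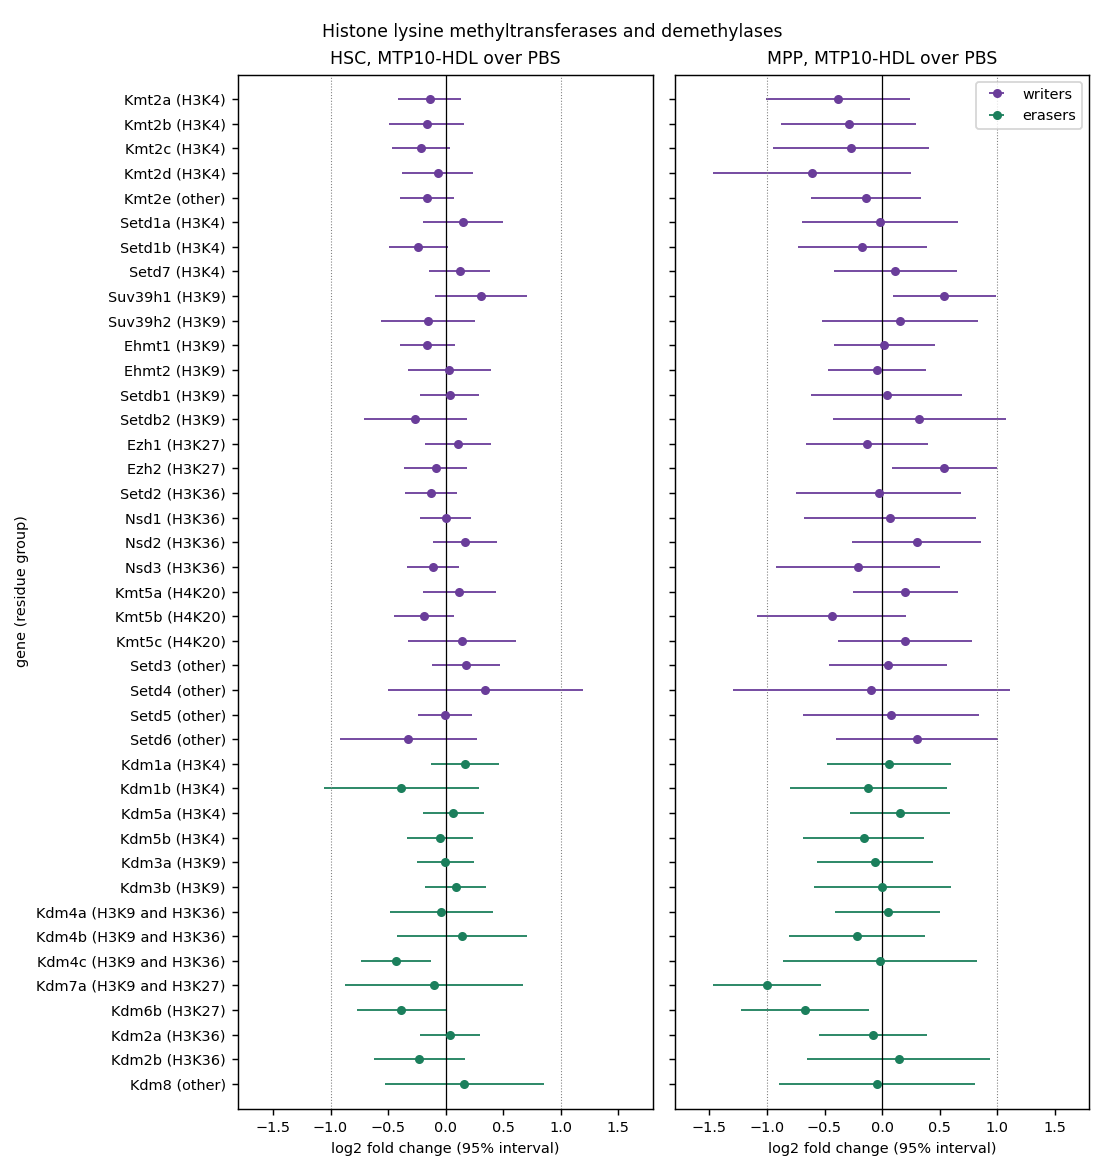
Log2 fold change of MTP10-HDL over PBS with its 95% interval for each of the 41 tested genes, in HSCs (left panel) and MPPs (right panel). Purple points are writers, green points are erasers, and dotted lines mark a 2-fold difference in either direction. In HSCs 39 intervals stay inside the dotted lines, in MPPs 33, and Kdm7a in MPPs lies furthest from 0 at -1.0.

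Among the H3K4 writers in HSCs, 5 of 7 had a log2 fold change below 0, with a median of -0.14, and none had an unadjusted p under 0.05. Kmt2a, which keeps Hox genes active in blood stem cells, was at 431, 460 and 497 CPM with MTP10-HDL (lowest, median and highest of 6 libraries), against 399, 521 and 630 CPM with PBS (7 libraries). All 6 MTP10-HDL libraries lay below the PBS median, but inside the PBS range, and the log2 fold change was -0.14 (SE 0.13, adjusted p = 0.756). Kmt2c, an enhancer H3K4 monomethyltransferase, was at 274, 304 and 369 CPM with MTP10-HDL and 275, 367 and 418 CPM with PBS (log2 fold change -0.21, SE 0.12, adjusted p = 0.601). Its partner enzyme Kmt2d was at 278, 306 and 324 CPM with MTP10-HDL and 216, 300.3 and 438 CPM with PBS (-0.07, SE 0.15). The MTP10-HDL libraries of Kmt2d thus lay in the middle of a PBS group that was spread more widely. Setd1b, the catalytic subunit of a COMPASS complex, was at 76.9, 84.9 and 89.1 CPM with MTP10-HDL and 77.6, 98.8 and 113 CPM with PBS. All 6 MTP10-HDL libraries were below the PBS median of Setd1b (log2 fold change -0.24, SE 0.12, adjusted p = 0.574 by edgeR).

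Setd7, which adds a single methyl group to H3K4 and also acts on other proteins, was at 172, 239 and 275 CPM in MTP10-HDL HSCs and 180, 212 and 244 CPM in PBS HSCs. The groups overlapped over most of their range (log2 fold change 0.12, SE 0.13, 95% interval -0.14 to 0.39). Setd1a was at 33.0, 44.9 and 48.3 CPM with MTP10-HDL and 27.4, 39.1 and 53.3 CPM with PBS (0.15, SE 0.16), and Kmt2b was at -0.17 (SE 0.16). The interval for Setd7 lay within 1.5-fold in either direction.

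The writers of silencing marks were spread on both sides of 0 in HSCs. Of the 6 H3K9 writers, 3 were above and 3 below 0, with a median log2 fold change of -0.06. Suv39h1, which trimethylates H3K9 in heterochromatin, was at 35.5, 54.2 and 79.2 CPM with MTP10-HDL and 35.2, 47.7 and 55.5 CPM with PBS. Its highest libraries, MTP10-HDL 2 and 5 at 79.2 and 73.0 CPM, exceeded every PBS library, while the lowest, MTP10-HDL 1, lay at the bottom of the PBS range (log2 fold change 0.31, SE 0.19, adjusted p = 0.640). Setdb2 was at 15.8, 22.3 and 26.3 CPM with MTP10-HDL and 18.2, 23.2 and 40.3 CPM with PBS (-0.26, SE 0.21). Ehmt1 (GLP) was at 59.8, 71.3 and 82.7 CPM with MTP10-HDL and 68.5, 79.7 and 86.1 CPM with PBS (-0.16, SE 0.11). Its partner in H3K9 dimethylation, Ehmt2 (G9a), was at 33.7, 52.4 and 61.1 CPM with MTP10-HDL and 39.0, 47.2 and 65.3 CPM with PBS (0.03, SE 0.17), so the groups of both overlapped. Setdb1, which silences retroelements, was at 74.2, 90.2 and 94.9 CPM with MTP10-HDL and 68.3, 86.9 and 93.6 CPM with PBS (0.03, SE 0.12), and Suv39h2 at 13.9, 19.7 and 22.7 CPM with MTP10-HDL and 13.8, 21.4 and 25.1 CPM with PBS (-0.15, SE 0.19).

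Ezh2, the main catalytic subunit of PRC2 in dividing cells, was at 137, 196 and 211 CPM in MTP10-HDL HSCs and 164, 196 and 239 CPM in PBS HSCs. The medians were equal to within 1 CPM, and the log2 fold change was -0.09 (SE 0.13, 95% interval -0.36 to 0.19). Ezh1, its counterpart in resting cells, was at 58.6, 68.0 and 84.6 CPM with MTP10-HDL and 45.5, 64.2 and 75.4 CPM with PBS (0.11, SE 0.14). Neither PRC2 enzyme therefore separated the treatments in HSCs.

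Among the H3K36 writers, Nsd2 was at 207, 308 and 334 CPM with MTP10-HDL and 218, 261 and 334 CPM with PBS (log2 fold change 0.17, SE 0.13). Only MTP10-HDL 1 of the 6 treated libraries was below the PBS median. Nsd1 was at 0.00 (SE 0.10), Nsd3 at -0.11 (SE 0.11) and Setd2, the enzyme of H3K36 trimethylation, at -0.13 (SE 0.11). The H4K20 writers were Kmt5a, which places the first methyl group and peaks in mitosis, at 120.5, 174 and 228 CPM with MTP10-HDL and 134, 155 and 176 CPM with PBS (0.12, SE 0.15), and Kmt5b, at 71.4, 85.6 and 101 CPM with MTP10-HDL and 83.2, 98.6 and 115 CPM with PBS (-0.19, SE 0.12). Kmt5a was more widely spread among MTP10-HDL than among PBS libraries, and Kmt5b was below the PBS median in 5 of 6 MTP10-HDL libraries. Kmt5c was at 0.14 (SE 0.22).

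Kdm4c, an eraser of H3K9 and H3K36 methylation, had the smallest p among these genes in HSCs. Its gene lies on chromosome 4 (74242497 to 74405864, RefSeq positions on GRCm38.p6). It was at 38.4, 53.8 and 67.4 CPM with MTP10-HDL and 58.9, 74.0 and 88.9 CPM with PBS. Group means were 54.1 ± 9.89 CPM (SD, n = 6) with MTP10-HDL and 72.9 ± 9.57 CPM (SD, n = 7) with PBS. All 6 MTP10-HDL libraries lay below the PBS median, and the groups overlapped between 58.9 and 67.4 CPM. The log2 fold change was -0.43 (SE 0.14, 95% interval -0.73 to -0.13, edgeR adjusted p = 0.428), so Kdm4c did not pass. Under the 23 alternatives tried it stayed between -0.50 and -0.34, with an unadjusted p under 0.05 in all 23. Marker lists of other cell types shifted in both directions in the same libraries, though their sums overlapped and no marker passed. Of 12 neutrophil markers 12 were above 0 (median 0.90, 0 at an unadjusted p under 0.05) and of 12 monocyte and macrophage markers 9 were above 0 (median 0.43, 1 at an unadjusted p under 0.05). Of 11 tested erythroblast markers 11 were below 0 (9 at an unadjusted p under 0.05), with sums of 68.5 to 152 CPM with MTP10-HDL and 127 to 529.5 CPM with PBS. Of 10 B cell markers 10 were below 0 (7 at an unadjusted p under 0.05), with sums of 48.9 to 122 CPM with MTP10-HDL and 46.2 to 455 CPM with PBS, and of 10 immediate early genes 9 were below 0 (6 at an unadjusted p under 0.05), with sums of 229.8 to 642 CPM with MTP10-HDL and 138 to 2717 CPM with PBS. Of these, Hba-a1, Vpreb1, Blk and Atf3 were each at 0 in 1 MTP10-HDL library, and Hba-a2 and Vpreb1 in 1 PBS library. Their part in the Kdm4c and Kdm6b values was not tested. The close relatives Kdm4a and Kdm4b were at -0.04 (SE 0.21) and 0.14 (SE 0.27).

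Kdm6b (JMJD3), the H3K27 demethylase that inflammatory signals induce in macrophages, was next among the erasers. It was at 34.1, 40.2 and 59.6 CPM in MTP10-HDL HSCs and 36.5, 55.2 and 75.0 CPM in PBS HSCs (log2 fold change -0.39, SE 0.18, adjusted p = 0.562). It was below the PBS median in 5 of 6 MTP10-HDL libraries. The exception was MTP10-HDL 1, and without that library the log2 fold change was -0.50. Kdm6bos, an antisense transcript of the same locus, had 0 to 10 counts per HSC library beside 166 to 533 counts of Kdm6b. Whether counting used strand is not given in the sources used here.

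Kdm7a, which removes methyl groups from H3K9 and H3K27, was dominated by 1 HSC library. MTP10-HDL 1 held 193 CPM, whereas the other 5 MTP10-HDL libraries were at 37.2 to 66.9 CPM and the 7 PBS libraries at 45.3, 68.7 and 123 CPM (lowest, median and highest). With all libraries the log2 fold change was -0.10 (SE 0.37). It was above 0, at 0.03 to 0.06, without MTP10-HDL 2, 5 or 6 or without PBS 5. Without MTP10-HDL 1 it was -0.70 (adjusted p = 0.377), and it did not pass in either fit. MTP10-HDL 1 also held the highest summed level of 12 monocyte and macrophage markers, 3074 CPM, against 284 to 1083 CPM in the other MTP10-HDL libraries and 218 to 2221 CPM in PBS, and the highest sum of 12 neutrophil markers, 6098 CPM against at most 4116 CPM in PBS. All 12 monocyte markers had counts in every HSC library. PBS 1, with the second highest monocyte sum, held 51.5 CPM of Kdm7a. PBS 5, with the second highest neutrophil sum (4116 CPM), held 123 CPM, and MTP10-HDL 6, with the next highest (3529 CPM), held 39.9 CPM. The part of these cells in the Kdm7a value was not tested.

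**Figure D2:**
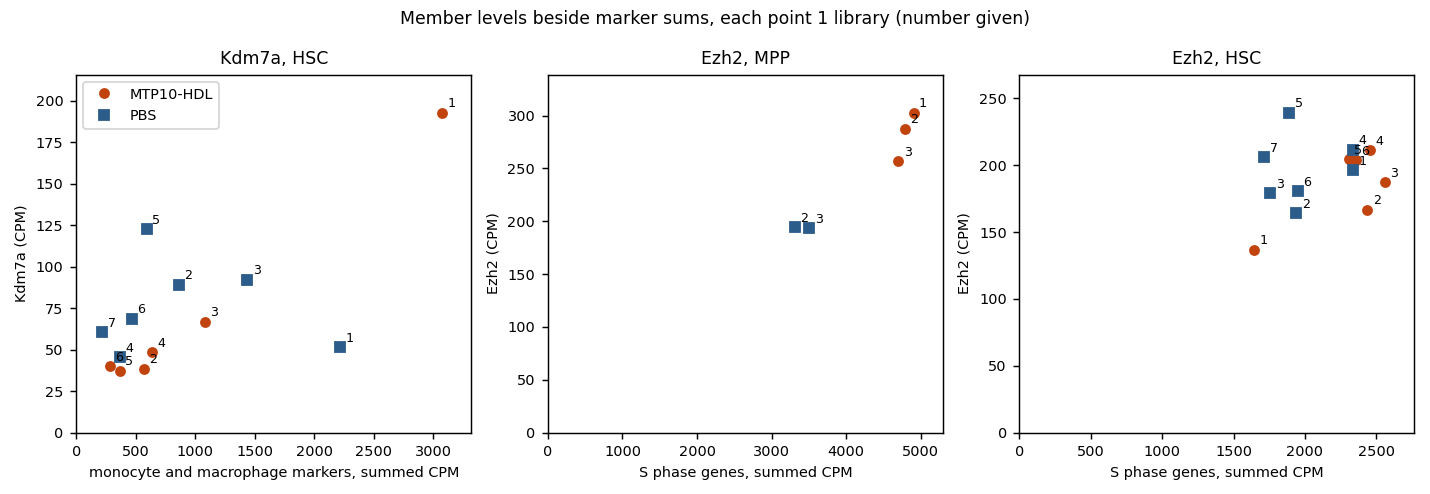
Kdm7a in HSCs against the summed CPM of 12 monocyte and macrophage markers (left), and Ezh2 against the summed CPM of 20 S phase genes in MPPs (middle) and HSCs (right). Each point is 1 library with its number, circles for MTP10-HDL and squares for PBS. HSC library MTP10-HDL 1 stands apart on the left at 193 CPM of Kdm7a, and in MPPs the 3 MTP10-HDL libraries are higher on both axes than the 2 PBS libraries.

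The H3K4 erasers showed no difference in HSCs beyond the spread of the libraries. Kdm1a (LSD1), part of the CoREST complex, was at 68.8, 83.9 and 94.3 CPM with MTP10-HDL and 60.3, 65.1 and 93.7 CPM with PBS. All 6 MTP10-HDL libraries were above the PBS median (log2 fold change 0.17, SE 0.14, adjusted p = 0.721). Kdm5b was at 86.9, 95.1 and 114 CPM with MTP10-HDL and 79.9, 102 and 132 CPM with PBS (-0.05, SE 0.14), Kdm5a at 200, 247 and 300.5 CPM with MTP10-HDL and 205, 229 and 293 CPM with PBS (0.07, SE 0.13). Kdm1b was at -0.39 (SE 0.32), with a PBS group that ran between 10.8 and 53.8 CPM, its highest value in PBS 4. The other 6 PBS libraries were at 10.8 to 23.7 CPM.

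Kdm2a and Kdm2b, which remove H3K36 methylation at CpG islands, did not pass in HSCs. Kdm2b was at 19.2, 24.7 and 42.5 CPM with MTP10-HDL and 25.7, 33.1 and 35.2 CPM with PBS (log2 fold change -0.23, SE 0.19), below the PBS median in 5 of 6 MTP10-HDL libraries. Kdm2a was at 243, 272 and 378 CPM with MTP10-HDL and 248, 273 and 325 CPM with PBS (0.04, SE 0.12). The H3K9 erasers Kdm3a and Kdm3b were close to 0, Kdm3a at 81.5, 103 and 107 CPM with MTP10-HDL and 84.7, 96.7 and 109 CPM with PBS (0.00, SE 0.12), and Kdm3b at 209, 277 and 299.7 CPM with MTP10-HDL and 212, 243 and 317 CPM with PBS (0.08, SE 0.12). Setd3, an actin histidine methyltransferase, was at 45.5, 52.3 and 58.8 CPM with MTP10-HDL and 35.6, 46.5 and 60.2 CPM with PBS (0.18, SE 0.14). The groups of all these genes overlapped. Kdm8 was at 0.16 (SE 0.33), and the other writers outside the residue groups lay between -0.32 (Setd6) and 0.34 (Setd4).

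HSC libraries were placed in 3 sets that each hold both treatments, separated by the number of detected genes and the share of ribosomal RNA. The labels name no batch, so whether these sets have a technical origin is not known. Within the sets, the difference of mean log2 levels was -0.55, -0.25 and -0.48 for Kdm4c (PBS 1 and 4 with MTP10-HDL 2 and 3, PBS 2 and 3 with MTP10-HDL 1 and 4, and the other 5 libraries, in that order). Kdm4c was thus lower with MTP10-HDL in all 3. Kdm6b differed by -0.73, 0.12 and -0.46, Setd1b by -0.34, 0.12 and -0.38, Suv39h1 by 0.12, 0.16 and 0.52, and Kdm7a by 0.07, 0.09 and -1.04. With the set as a term in the edgeR fit the log2 fold change of Kdm4c was -0.44 and its adjusted p 0.329.

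**Figure D3:**
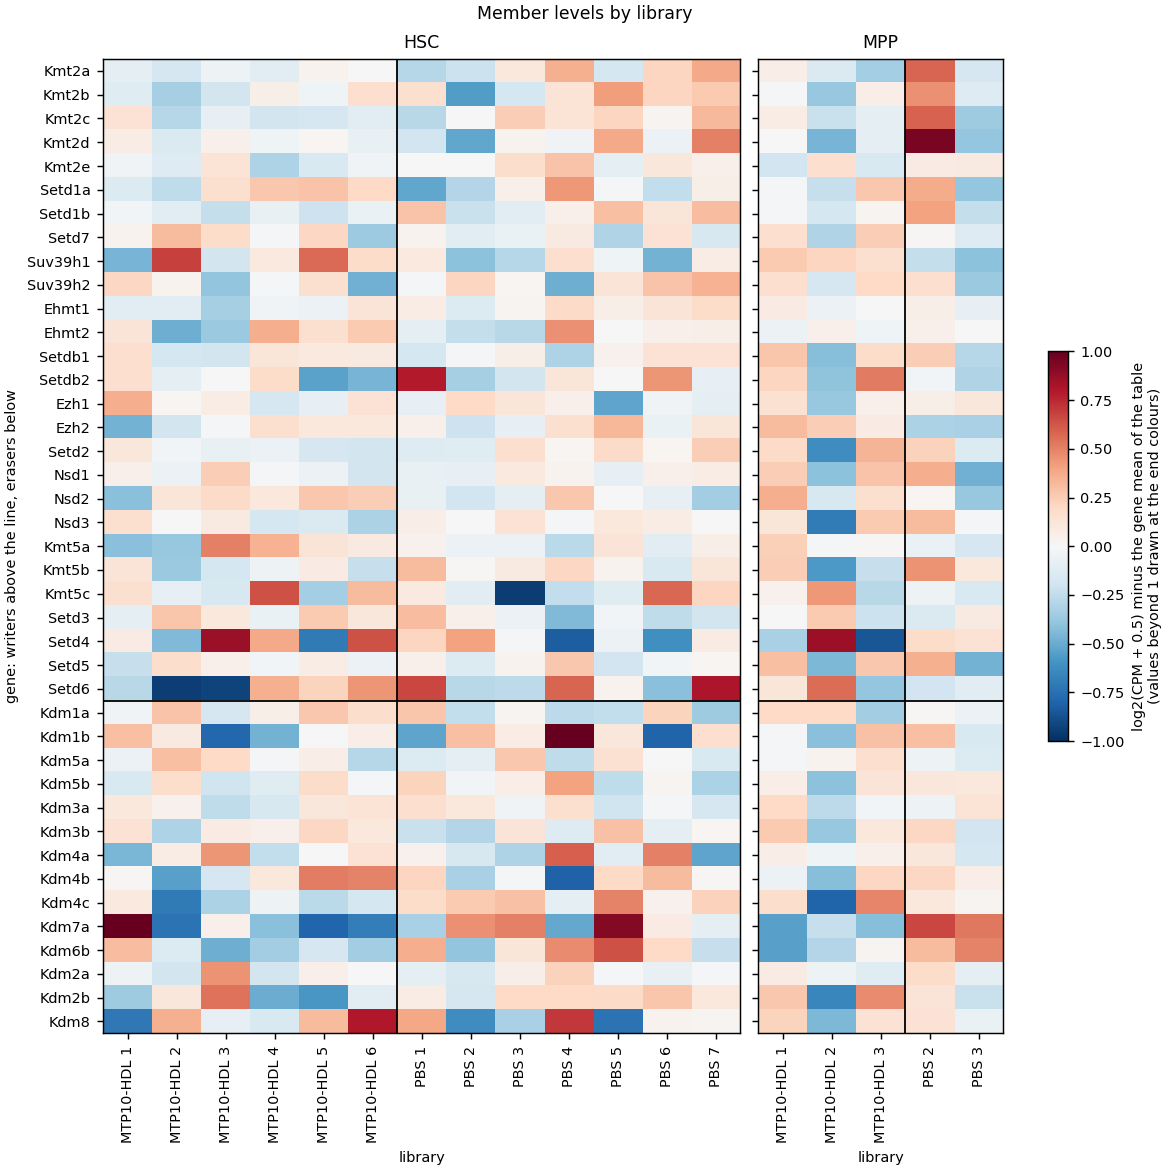
Level of each gene in each library as log2(CPM + 0.5) minus the mean of that gene over the table, in HSCs (left) and MPPs (right). MTP10-HDL libraries stand left of the vertical line and PBS libraries right of it, and writers stand above the horizontal line. Most cells of the HSC panel are pale, and MPP libraries PBS 2 and MTP10-HDL 2 differ from the rest of their groups in many rows.

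In MPPs, too, no writer or eraser passed the FDR threshold in edgeR, where 0 of 41 genes and 0% of all 15449 genes were called, or in limma voom (0 of 41). DESeq2 called 1 of the 41, Kdm7a, lower with MTP10-HDL, beside 0.897% of all genes, and edgeR with no filter on low counts called the same gene, beside 1.32% of all genes. At an unadjusted p under 0.05, 2 of the 41 were higher, Ezh2 and Suv39h1 (background 2.17%), and 2 were lower, Kdm7a and Kdm6b (background 4.06%; 6.23% in either direction). The higher count was 0 without MTP10-HDL 1, without PBS 2 or without PBS 3, and the lower count was 1 without PBS 2 and 4 without PBS 3. The 2 that were higher are writers and the 2 that were lower are erasers. Writers as a whole did not lean upward: 14 were above and 13 below 0, with a median log2 fold change of 0.02. Of the erasers 5 were above and 9 below 0, with a median of -0.05. Log2 fold changes ran between -1.0 and 0.54 with a median of -0.02, beside 0.02 for all genes, 19 above and 22 below 0. The median SE was 0.25, and 33 intervals lay within 2-fold (45.7% of all genes, not matched for expression level) but only 6 within 1.5-fold. All 3 MTP10-HDL libraries lay above both PBS libraries for 4 genes (Ezh2, Suv39h1, Kmt5a and Kdm5a, 12% of all genes) and below both for 2 (Kdm7a and Kdm6b, 12.3% of all genes).

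Ezh2 (chromosome 6, 47530274 to 47595270) was at 302, 288 and 257 CPM in the 3 MTP10-HDL libraries of MPPs, against 194 CPM in each PBS library. Its log2 fold change was 0.54 (SE 0.20, 95% interval 0.08 to 1.00, adjusted p = 0.736). Suv39h1 (chromosome X, 8061171 to 8074760) was at 85.9, 83.2 and 80.1 CPM with MTP10-HDL and 60.6 and 53.7 CPM with PBS (0.54, SE 0.19, adjusted p = 0.736). Both genes separated the treatments without overlap. Over 13 alternatives Ezh2 stayed between 0.48 and 0.61 and Suv39h1 between 0.45 and 0.62, and each had an unadjusted p under 0.05 in 9.

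Genes of DNA replication were higher in the same libraries. All 20 S phase genes had a log2 fold change above 0 in MPPs, with a median of 0.45, and 8 had an unadjusted p under 0.05. Their summed level was 4699 to 4902 CPM with MTP10-HDL and 3311 and 3507 CPM with PBS. The 20 mitosis genes were also all above 0 (median 0.35), with sums of 3749 to 4679 CPM with MTP10-HDL and 3200.0 to 3299 CPM with PBS. None of these genes passed the FDR threshold, and their part in the Ezh2 and Suv39h1 values was not tested. In HSCs, where Ezh2 had a log2 fold change of -0.09, 16 of 19 tested S phase genes were above 0 (median 0.21, 4 at an unadjusted p under 0.05), and the S phase sums overlapped, at 1643 to 2562 CPM with MTP10-HDL and 1716 to 2339 CPM with PBS.

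Upstream sequences are shown for Suv39h1, one of the MPP genes that were higher, and Kdm7a, the gene with the lowest log2 fold change in MPPs. They are the 250 bases before a start listed by RefSeq on GRCm38.p6, written 5′ to 3′ on the gene's own strand, with motif matches in capitals. Kdm6b is not shown, and neither is Ezh2, whose listed start lies inside its gene span, so that most of its window falls within the gene. Searched on both strands were CCAAT, the E2F forms TTTCCCGC, TTTCGCGC, TTTGCCGC and TTTGGCGC, the interferon element (TTTC, any 2 bases, TTTC), the AP-1 site TGANTCA and the cyclic AMP element TGACGTCA. The minus-strand windows are chrX:8074761-8075010 for Suv39h1 (the first of its 2 listed windows) and chr6:39206774-39207023 for Kdm7a.
Suv39h1: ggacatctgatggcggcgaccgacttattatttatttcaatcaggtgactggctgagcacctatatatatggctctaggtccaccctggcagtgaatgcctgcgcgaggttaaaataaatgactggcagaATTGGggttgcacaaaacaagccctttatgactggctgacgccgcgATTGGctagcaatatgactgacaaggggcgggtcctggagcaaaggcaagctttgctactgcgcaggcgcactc
Kdm7a: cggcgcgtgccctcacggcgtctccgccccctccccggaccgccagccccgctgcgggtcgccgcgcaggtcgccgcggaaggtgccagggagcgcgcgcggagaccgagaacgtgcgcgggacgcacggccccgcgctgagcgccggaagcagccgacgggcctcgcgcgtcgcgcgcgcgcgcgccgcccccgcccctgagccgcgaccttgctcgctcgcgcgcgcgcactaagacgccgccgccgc
The Suv39h1 window holds 2 CCAAT matches and the Ezh2 window 3, each read as CCAAT or, on the other strand, ATTGG, and the Kdm7a window holds none of the motifs. Of all 32851 windows of that length, 33.8% hold at least 1 CCAAT, 10.1% at least 2 and 2.79% at least 3. Among the 31 genes of the set with a window, 14 hold at least 1, 8 at least 2 and 3 at least 3 (Ezh2, Kmt5a and Setd3). These 31 genes have 43 windows, of which 18 hold at least 1 CCAAT. A gene with several windows has several chances of a match, so the counts by gene cannot be set against the percentages of windows. An E2F form, present in 1.86% of all windows, was found in the second Suv39h1 window and in neither the Ezh2 nor the Kdm7a window. These are letter matches in short windows and say nothing of binding.

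The other writers of silencing marks in MPPs were close to 0 or uncertain. Of the 6 H3K9 writers 5 were above 0, with a median log2 fold change of 0.10, but only Suv39h1 had an unadjusted p under 0.05. Setdb2 was at 21.9, 14.1 and 27.1 CPM with MTP10-HDL and 18.4 and 15.1 CPM with PBS (0.32, SE 0.32). Ehmt2 was at 170, 184 and 173 CPM with MTP10-HDL and 184 and 178 CPM with PBS (-0.04, SE 0.18), and Ehmt1 at 101, 91.9 and 95.8 CPM with MTP10-HDL and 99.7 and 90.3 CPM with PBS (0.02, SE 0.19). The treatments overlapped for both genes, and their 95% intervals lay within -0.47 and 0.46. Suv39h2 was at 16.3, 12.8 and 16.6 CPM with MTP10-HDL and 16.3 and 11.1 CPM with PBS (0.16, SE 0.29), and Setdb1 at 97.4, 59.6 and 91.4 CPM with MTP10-HDL and 95.1 and 65.8 CPM with PBS (0.04, SE 0.28). Ezh1 was at 67.3, 46.4 and 62.9 CPM with MTP10-HDL and 63.1 and 65.7 CPM with PBS (-0.13, SE 0.23).

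Of the 7 H3K4 writers in MPPs, 6 were below 0 with a median log2 fold change of -0.27, and none had an unadjusted p under 0.05. Kmt2d was at 135, 97.8 and 126 CPM with MTP10-HDL and 261 and 104 CPM with PBS (-0.61, SE 0.37, adjusted p = 0.866). Kmt2a was at 219, 189 and 164 CPM with MTP10-HDL and 312 and 186 CPM with PBS (-0.39, SE 0.27). In both genes PBS 2 was high and PBS 3 lay among the MTP10-HDL libraries. Kmt2c was at 134, 109 and 119 CPM with MTP10-HDL and 192 and 99.3 CPM with PBS (-0.27, SE 0.29), and Setd1b at 58.7, 52.8 and 60.8 CPM with MTP10-HDL and 78.7 and 50.5 CPM with PBS (-0.17, SE 0.24). The sign of these 4 genes rested on PBS 2: without it the log2 fold changes were 0.20 for Kmt2d, 0.03 for Kmt2a, 0.27 for Kmt2c and 0.17 for Setd1b. Setd1a was at 27.3, 23.4 and 33.3 CPM with MTP10-HDL and 35.8 and 21.0 CPM with PBS (-0.02, SE 0.29), Kmt2b at 64.4, 49.7 and 67.7 CPM with MTP10-HDL and 88.9 and 59.2 CPM with PBS (-0.29, SE 0.25). Setd7 was at 161, 117 and 171 CPM with MTP10-HDL and 145 and 131 CPM with PBS (0.11, SE 0.23).

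The MPP libraries PBS 2 and PBS 3 differed from each other more than the treatments did for many writers. Of the 41 tested genes 35 were higher in PBS 2, 8 of them by more than 1.5-fold: Kmt2d (2.52-fold), Kmt2c (1.93-fold), Nsd1, Setd5, Setd1a, Kmt2a (1.68-fold), Setd1b and Kmt2b. The median ratio of PBS 2 to PBS 3 was 1.17 over these genes and 0.996 over all genes. In the other direction, 31 of the 41 were lower in MTP10-HDL 2 than in the mean of MTP10-HDL 1 and 3. The sum of 10 immediate early genes, which respond to handling and stress within minutes, was 203, 757 and 284 CPM in MTP10-HDL 1, 2 and 3, against 301 CPM in PBS 2 and 2767 CPM in PBS 3. In MPPs, PBS 3 and MTP10-HDL 2, the libraries low in these enzymes, were thus the highest of their groups in immediate early genes. HSC libraries did not all follow that order. HSC library PBS 4 had the highest immediate early sum (2717 CPM) and the highest mean of these enzymes (0.087, log2 CPM centred by gene). HSC library PBS 2, at 2147 CPM, had the lowest mean (-0.114). The list of immediate early genes was chosen after the data were seen, and its part in the difference between MPP libraries was not tested.

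Among the H3K36 and H4K20 writers of MPPs, Nsd2 was at 297, 207 and 258 CPM with MTP10-HDL and 235 and 178 CPM with PBS (log2 fold change 0.30, SE 0.24). Kmt5a was at 132, 110 and 113 CPM with MTP10-HDL and 107 and 99.4 CPM with PBS (0.20, SE 0.20). Kmt5b was at 71.0, 40.1 and 51.0 CPM with MTP10-HDL and 81.9 and 64.6 CPM with PBS (-0.44, SE 0.28, adjusted p = 0.873). All MTP10-HDL libraries of Kmt5a were above both PBS libraries, and the groups overlapped for Nsd2 and Kmt5b. Setd2, Nsd1 and Nsd3 were at -0.03 (SE 0.31), 0.07 (SE 0.32) and -0.21 (SE 0.30), and Kmt5c at 0.20 (SE 0.25). The writers grouped as other lay between -0.14 (Kmt2e) and 0.30 (Setd6), with Setd3 at 105, 126 and 90.6 CPM with MTP10-HDL and 94.99 and 112 CPM with PBS (0.05, SE 0.22).

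Kdm7a (chromosome 6, 39136620 to 39206773) was the eraser that separated the MPP treatments most. It was at 30.9, 38.4 and 33.6 CPM with MTP10-HDL and 71.9 and 65.3 CPM with PBS, a mean of 34.3 ± 3.81 CPM (SD, n = 3) against 68.6 ± 4.63 CPM (SD, n = 2). The log2 fold change was -1.0 (SE 0.20, 95% interval -1.47 to -0.53), a level 0.50 times that in PBS. Its unadjusted p was 0.00128 and its edgeR adjusted p 0.320, so it did not pass the main test, while DESeq2 gave an adjusted p of 0.0182 and edgeR without the filter 0.0229. Over the 13 alternatives it stayed between -1.16 and -0.93, and the adjusted p ran between 0.0182 and 1. With 3 against 2 libraries an exact permutation test cannot reach a p under 0.1.

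Kdm6b (chromosome 11, 69398508 to 69420367) was at 21.3, 25.5 and 31.9 CPM in MTP10-HDL MPPs and 39.1 and 44.3 CPM in PBS MPPs. The groups did not overlap, and the log2 fold change was -0.67 (SE 0.24, adjusted p = 0.736). It stayed between -0.83 and -0.54 over 13 alternatives, 8 of which had an unadjusted p under 0.05. Kdm6bos had 6 to 67 counts per MPP library beside 501 to 722 counts of Kdm6b.

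The summed markers of 2 other cell types were lower, without overlap, in the same MTP10-HDL libraries of MPPs. Immediate early genes had fold changes below 0, but their sums overlapped, and the high PBS sum was that of PBS 3. All 9 tested immediate early genes were below 0 (median -1.78, 4 at an unadjusted p under 0.05), with sums of 203 to 757 CPM with MTP10-HDL and 301 to 2767 CPM with PBS, and Atf3 was at 0 in all 3 MTP10-HDL libraries. The 12 monocyte and macrophage markers summed to 267 to 363 CPM with MTP10-HDL and 424 to 454 CPM with PBS, although 6 of the 12 were above and 6 below 0, with 3 below 0 at an unadjusted p under 0.05. The 12 erythroblast markers, of which 11 were tested and 10 were below 0, summed to 21.0 to 42.0 CPM with MTP10-HDL and 72.8 to 101 CPM with PBS. Among them, Alas2, Epb42 and Rhag each had 0 counts in 1 of the 3 MTP10-HDL libraries, and no monocyte marker was at 0. Immunoglobulin genes held 2.76 to 4.26% of counts with MTP10-HDL and 6.20 to 12.5% with PBS, and ribosomal RNA 0.508 to 0.915% with MTP10-HDL and 1.26 to 1.47% with PBS. Of the stem cell and progenitor markers given above, Procr, Kit and Slamf1 were also lower in these libraries and Flt3 was higher, each without overlap. Among all genes tested in MPPs, 12.3% lay wholly below PBS and 12% wholly above. None of these markers passed the FDR threshold, and the part of any of these in the Kdm7a and Kdm6b values was not tested. Neutrophil sums overlapped in MPPs, at 258 to 1780 CPM with MTP10-HDL and 646 to 818 CPM with PBS, and so did B cell sums, at 288 to 458 CPM with MTP10-HDL and 367 to 499 CPM with PBS.

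**Figure D4:**
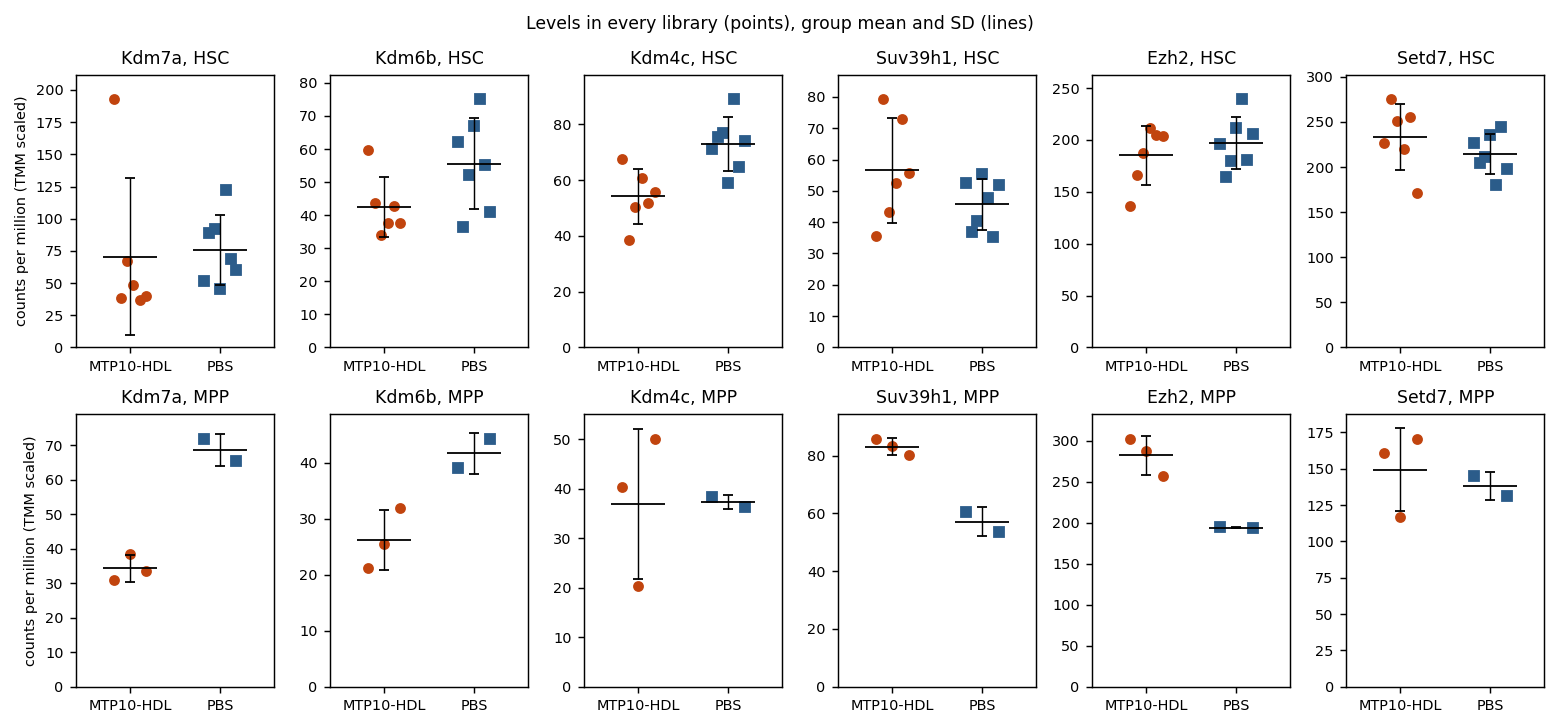
CPM in every library for 4 genes with an unadjusted p under 0.05 in MPPs (Kdm7a, Kdm6b, Suv39h1 and Ezh2), for Kdm4c, the gene of smallest p in HSCs, and for Setd7, with HSCs in the upper row and MPPs in the lower row. Circles are MTP10-HDL and squares PBS libraries, and lines give the group mean and SD. Kdm7a in MPPs separates fully, at 30.9 to 38.4 CPM with MTP10-HDL against 65.3 and 71.9 CPM with PBS, while the HSC groups overlap in every panel.

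The remaining MPP erasers were near 0. Kdm4c, the gene of smallest p in HSCs, was at 40.4, 20.3 and 50.1 CPM in MTP10-HDL MPPs and 38.3 and 36.4 CPM in PBS MPPs (log2 fold change -0.02, SE 0.36). Its MTP10-HDL libraries lay on both sides of the PBS pair. Kdm5a was at 133, 138 and 151 CPM with MTP10-HDL and 130.2 and 123 CPM with PBS (0.16, SE 0.19), Kdm5b at 89.4, 64.1 and 93.4 CPM with MTP10-HDL and 92.2 and 91.7 CPM with PBS (-0.16, SE 0.23), and Kdm1a at 121, 121 and 83.1 CPM with MTP10-HDL and 107 and 101 CPM with PBS (0.06, SE 0.23). Kdm2b was at 58.0, 30.3 and 66.9 CPM with MTP10-HDL and 52.6 and 41.1 CPM with PBS (0.14, SE 0.34) and Kdm2a at 230.5, 209.7 and 199.8 CPM with MTP10-HDL and 248 and 203 CPM with PBS (-0.08, SE 0.20). For Kdm1a and Kdm2b the MTP10-HDL libraries again lay on both sides of the PBS pair. Kdm3a was at 98.4, 71.3 and 83.6 CPM with MTP10-HDL and 82.4 and 93.9 CPM with PBS (-0.06, SE 0.22), Kdm3b at 179, 114 and 159.9 CPM with MTP10-HDL and 171 and 129.9 CPM with PBS (0.00, SE 0.25), and Kdm1b at 20.4, 15.4 and 25.5 CPM with MTP10-HDL and 25.7 and 18.6 CPM with PBS (-0.12, SE 0.29). Kdm4a, Kdm4b and Kdm8 lay between -0.22 and 0.05.

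Whether the response differed between MPPs and HSCs was tested in 1 edgeR fit of all 18 libraries. That fit filtered all libraries together and kept Kdm4d, whose value is not given because it had no MPP counts. None of the 42 genes passed an FDR of 0.05 for the difference of the log2 fold changes (1 of 24470 genes did, 0.00409%), and none did in limma voom. At an unadjusted p under 0.05 there was 1 of the 42, Ezh2, against 3.86% of all genes. None was higher without MPP library MTP10-HDL 1, and 2 were without MTP10-HDL 2. The MPP response of Ezh2 exceeded its HSC response by 0.65 (SE 0.26, adjusted p = 1). With 1 MPP library left out at a time, that difference ran from 0.57 to 0.72. For Kmt2d it ran from -1.09 to 0.35. For Kdm7a the difference was -0.88 (SE 0.60) and for Kdm4c 0.43 (SE 0.34, adjusted p = 1 for both), and neither gene was shown to respond differently in the 2 cell types. Kdm6b was at -0.39 in HSCs and -0.67 in MPPs, and Suv39h1 at 0.31 in HSCs and 0.54 in MPPs, and their differences were -0.26 (SE 0.35) and 0.25 (SE 0.35). Of the 41 genes 25 (61.0%) had the same sign in both cell types, beside 61.5% of all 13593 genes tested in both, and these comparisons share no library.

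Ratios between paralogs were compared within libraries, since a ratio does not depend on scaling between them. In HSCs none of 9 paralog pairs passed after adjustment over the 9 pairs (2-sided exact permutation test, 6 against 7 libraries). Kdm2b to Kdm2a came closest, with a mean log2 count ratio of -3.41 ± 0.33 (SD, n = 6) with MTP10-HDL and -3.11 ± 0.13 (SD, n = 7) with PBS (exact p = 0.0484, adjusted 0.283). Of the 6 MTP10-HDL libraries 4 lay below every PBS library and 2 and 3 lay inside the PBS range, and without MTP10-HDL 2 the difference grew to -0.40 (exact p = 0.00505, adjusted 0.0455). Setd1b to Setd1a was at 0.99 ± 0.27 (SD, n = 6) with MTP10-HDL and 1.38 ± 0.39 (SD, n = 7) with PBS (exact p = 0.0629, adjusted 0.283). The other 7 pairs had adjusted exact p-values between 0.405 and 0.573.

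In MPPs the ratio of Ezh1 to Ezh2 was -2.17, -2.63 and -2.03 (log2) with MTP10-HDL and -1.62 and -1.56 with PBS. These groups did not overlap (exact permutation p = 0.1, the minimum for 10 arrangements, and 0.72 after adjustment over the 9 pairs). Kdm5b to Kdm5a was at -0.79 ± 0.28 (SD, n = 3) with MTP10-HDL and -0.46 ± 0.05 (SD, n = 2) with PBS, also without overlap (exact p = 0.2). In HSCs the same ratios overlapped, Ezh1 to Ezh2 at -1.42 ± 0.40 (SD, n = 6) with MTP10-HDL and -1.62 ± 0.40 (SD, n = 7) with PBS, and Kdm5b to Kdm5a at -1.34 ± 0.23 (SD, n = 6) with MTP10-HDL and -1.24 ± 0.36 (SD, n = 7) with PBS.

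**Figure D5:**
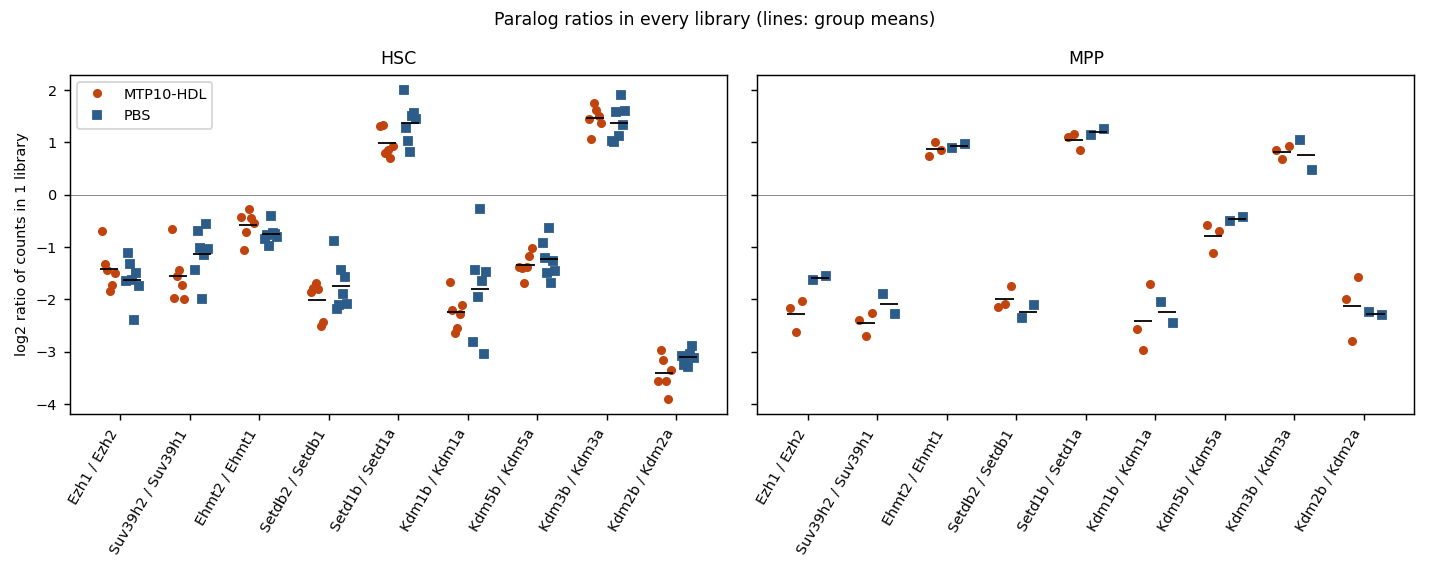
Log2 ratio of the counts of 2 paralogs (1 added to each) in every library of HSCs (left) and MPPs (right), with MTP10-HDL circles left of PBS squares and group means as lines. Ezh1 to Ezh2 separates the treatments in MPPs, at -2.63 to -2.03 with MTP10-HDL against -1.62 and -1.56 with PBS, and overlaps in HSCs.

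Proteins that work with these enzymes gave no called gene in either cell type. Of 10 PRC2 partners tested (Eed, Suz12 and others), 7 were above and 3 below 0 in MPPs with a median log2 fold change of 0.23, and their summed level was 1546 to 1819 CPM with MTP10-HDL and 1284 to 1370 CPM with PBS. COMPASS partners (Wdr5, Ash2l and others; 10 of 12 above 0, median 0.21) and readers and partners of H3K9 methylation (8 of 11 above 0, median 0.12) also had sums without overlap in MPPs. The first were at 1564 to 1727 CPM with MTP10-HDL and 1422 to 1556 CPM with PBS, the second at 1981 to 2165 CPM with MTP10-HDL and 1644 to 1868 CPM with PBS. No member of these 3 lists had an unadjusted p under 0.05 in MPPs, and the median of all genes was 0.02. CoREST partners of Kdm1a had 4 of 11 above 0 in MPPs (median -0.13, 2 lower at an unadjusted p under 0.05). In HSCs all 4 lists overlapped between treatments, with medians between -0.07 and 0.04.

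Other enzymes of the same chemistry fall outside the name pattern. Of 15 further SET-domain or DOT1 methyltransferases (Dot1l, Ash1l, Mecom, the Prdm and Smyd genes), 5 of 15 tested were above 0 in HSCs (median log2 fold change -0.05) and 4 of 14 in MPPs (median -0.21). Of 14 further JmjC proteins, 5 of 13 tested were above 0 in HSCs (median -0.07) and 7 of 13 in MPPs (median 0.04). None of them had an unadjusted p under 0.05 in either cell type.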

How the data were processed

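The authors deposited raw counts per gene for the HSC and MPP libraries, 1 table for each cell type. Per the submitters' processing notes, reads were aligned to mm10 with STAR (2.5.2b for HSCs, with CASAVA 1.8.2, and 2.7.2a for MPPs). The counting tool, annotation and use of strand are, in the sources used here, not given. Per the labels' protocols, HSC libraries came from amplified cDNA (Ovation RNA-Seq System V2, single 50-base reads) and MPP libraries from poly-A RNA with insect carrier RNA and a directional kit. The HSC labels number the PBS samples 1 to 6 and 8 and the table's columns 1 to 7, so PBS libraries carry the numbers of the table. They were taken only as a group, except in the replicate block and the check of same-numbered libraries.

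Counts were tested as deposited with edgeR 4.0.16 (quasi-likelihood F test, TMM normalization, filterByExpr, Benjamini-Hochberg adjustment over all genes, FDR under 0.05) in R 4.3.3, within each table. All p-values in the report are from edgeR unless another test is named, and SEs are the log2 fold change divided by the root of F. CPM are counts over the TMM-scaled total of the tested genes. Alternatives were limma 3.58.1 voom, DESeq2 1.42.0, other filters, scaling, a replicate block, the set of HSC libraries as a covariate and leaving out libraries. The fits were tested on simulated data. Genes past the FDR, the 5 of smallest p in each direction in each table, the genes of the 9 paralog pairs, and Kmt2a, Setd7, Kdm6b, Kdm5b, Ezh1 and Ezh2 are given with every MPP library and with the lowest, median and highest of each HSC group, and most other genes with the fold change and its SE only. The genes, lists and tests were chosen with earlier results of these data known. The 12 ATAC samples were not analysed here.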

Additional observations from a re-analysis of the deposited data

Results flagged for a closer look

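Dixon's criterion was applied to log2 values in 100 groups, each 1 gene or paralog ratio in 1 HSC treatment group. In these, 5 values stood apart from the rest of their group. Chance gives about 1 in 20, so 5 in 100 is the share that chance alone would give. Kdm7a was at 193 CPM in HSC library MTP10-HDL 1, far above the other 5. Nsd2 was at 207 CPM in the same library, far below the other 5. Kdm3b, an H3K9 demethylase, was at 209 CPM in HSC library MTP10-HDL 2, and Ezh1 at 45.5 CPM in HSC library PBS 5. The log2 ratio of Ehmt2 to Ehmt1 was -0.40 in HSC library PBS 4, the highest of that group.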

How the results depend on the processing

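Correlations of deviations between same-numbered libraries of the 2 treatments ran between -0.173 and 0.194 in HSCs. There 2 of 6 exceeded 0.1 and 0 matched best with their own number. The HSC check and block rest on the table's PBS numbers, which the labels do not tie to samples, so they cannot decide on pairing. In MPPs the correlations were -0.239 and -0.0699. The deviations of only 2 PBS libraries mirror each other, so the MPP check cannot decide on pairing either. With a replicate block, 0 of the 41 genes passed the FDR in HSCs and 0 in MPPs. Kdm7a in MPPs was at -0.93, and at an unadjusted p under 0.05 there were 0 higher and 2 lower in HSCs and 0 higher and 1 lower in MPPs. Alternatives with MPP PBS 3 and MTP10-HDL 2 or HSC PBS 5 and MTP10-HDL 1 left out were chosen after the data were seen. The number of genes past the FDR in MPPs was 1 under DESeq2, 1 with no filter and 2 without PBS 3 and MTP10-HDL 2 (Kdm7a and Kmt2d), in place of 0. Log2 fold changes that turned sign in HSCs were Kmt2d at 0.0025 and Kdm5b at 0.00028 with no filter, Kmt2d at 0.040 with the block, and Ezh1 at -0.025 and Ezh2 at 0.045 without PBS 5 and MTP10-HDL 1. In MPPs they were Kdm4c at 0.0037 with no filter, Setd3 at -0.0095 and Kdm1a at -0.0037 among genes of at least 10 CPM, Kdm1a at -0.054 with the block, and Ezh1 at 0.042, Kdm1a at -0.068 and Kdm4c at 0.23 without PBS 3 and MTP10-HDL 2. In limma voom the cell type difference was 0.0061 for Kmt2c and -0.0040 for Setd7. Leaving out 1 library at a time, HSC values ran from -0.70 to 0.060 for Kdm7a, -0.11 to 0.017 for Kdm5b and -0.14 to 0.017 for Kmt2d. MPP values ran from -0.71 to 0.028 for Kmt2a, -0.67 to 0.27 for Kmt2c, -1.12 to 0.20 for Kmt2d, -0.45 to 0.17 for Setd1b, -0.24 to 0.015 for Ezh1, -0.081 to 0.18 for Setd3, -0.030 to 0.22 for Kdm1a and -0.30 to 0.28 for Kdm4c. The difference between cell types ran from -0.60 to 0.25 for Kmt2a, -0.49 to 0.56 for Kmt2c, -1.09 to 0.35 for Kmt2d, -0.25 to 0.49 for Setd1b, -0.11 to 0.16 for Setd7, -0.080 to 0.42 for Nsd2, -0.016 to 0.20 for Kmt5a, -0.51 to 0.011 for Kmt5b, -0.18 to 0.074 for Kdm5b, -0.23 to 0.013 for Setd3 and -0.20 to 0.080 for Kdm1a. The median over the set in MPPs ran from -0.13 without PBS 3 to 0.16 without PBS 2, and the number of HSC paralog pairs past the threshold from 0 to 1 (without MTP10-HDL 2). The cause of these changes was not tested. Only 2 PBS libraries limit every MPP value.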

Other observations

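The count ratio of Ehmt2 to Ehmt1, which form a heterodimer that dimethylates H3K9, was below 1 in all 13 HSC libraries and above 1 in all 5 MPP libraries. Its mean log2 value in HSCs was -0.57 ± 0.27 (SD, n = 6) with MTP10-HDL and -0.75 ± 0.18 (SD, n = 7) with PBS. In MPPs it was 0.87 ± 0.13 (SD, n = 3) with MTP10-HDL and 0.93 ± 0.07 (SD, n = 2) with PBS. The cell types were prepared with different kits, so kit and cell type cannot be told apart.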
